A study of Mus musculus with 59 samples.

Results

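The RNAs described here are the ribosomal precursor Rn45s and 7 short noncoding RNAs of housekeeping RNA enzymes and regulatory particles: Rpph1, its copies Rprl1, Rprl2 and Rprl3, Rmrp, Rn7sk and Terc. They were picked by gene symbol from the total RNA decay table, with earlier results of the same table known: Rn45s for its loss over time, the short RNAs for their stability and Rprl3 for its higher level in the knockout. Of the 8 symbols, 7 have a row among the 23974 genes of the table, and 5 (Rn45s, Rpph1, Rprl3, Rmrp and Terc) reached the mean of at least 10 needed to be among the 6952 genes tested. Rn7sk was not analysed here.

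The cells were mouse embryonic stem cells from BDF1 blastocysts, kept in medium with serum, LIF and the inhibitors CHIR99021 and PD0325901. Wild type cells, called control below, were compared with Zcchc8 knockout cells, called KO. Cells of both genotypes were harvested without the drug (0 h) or after 4 or 8 h in Actinomycin D at 5 µg/ml, which gave 6 groups of 2 libraries. Total RNA was depleted of ribosomal RNA before sequencing, and ERCC spike-in RNA was added per the labels. The labels do not say whether the 2 libraries of a group come from separate cultures or whether a genotype is 1 clone. Errors here therefore cover only the spread between libraries. Each SE and interval of a log2 difference comes from limma, a fit that sets a gene's spread partly from other genes. The comparison asks how fast each RNA was lost once transcription was blocked, and whether that differed without Zcchc8.

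As background, RNA polymerase I makes one long ribosomal precursor in the nucleolus, which is cut and trimmed into mature ribosomal RNAs, and Actinomycin D blocks this transcription efficiently. Rpph1 is the RNA subunit of RNase P, which trims the 5′ ends of transfer RNA precursors. Rmrp is the RNA subunit of RNase MRP, a related enzyme that cuts the ribosomal precursor. RNA polymerase III makes both, as it makes the 7SK RNA of Rn7sk, which holds the elongation kinase P-TEFb inactive. Terc, the template RNA of telomerase, is made by RNA polymerase II, so the shared label of polymerase III RNAs applies to neither Terc nor Rn45s. Zcchc8 is a subunit of the nuclear exosome targeting complex, which hands short nuclear transcripts to the RNA exosome for degradation.

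The sequences of the 4 RNase P type RNAs are shown because the reads of Rprl3 have to be told apart from those of its abundant relative Rpph1. They are the starts of the GENCODE M21 transcripts, 255 bases of Rpph1 and 234 bases of each copy. Capitals in Rpph1 mark the second unit of a tandem repeat of 21 bases, which none of the 3 copies has, and capitals in the copies mark bases that differ from Rpph1 once that unit is removed.
Rpph1: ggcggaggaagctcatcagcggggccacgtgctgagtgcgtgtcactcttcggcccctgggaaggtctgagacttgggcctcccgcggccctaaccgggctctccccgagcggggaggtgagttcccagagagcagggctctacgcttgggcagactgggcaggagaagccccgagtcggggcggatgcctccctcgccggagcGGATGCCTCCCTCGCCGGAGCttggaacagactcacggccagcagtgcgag
Rprl3: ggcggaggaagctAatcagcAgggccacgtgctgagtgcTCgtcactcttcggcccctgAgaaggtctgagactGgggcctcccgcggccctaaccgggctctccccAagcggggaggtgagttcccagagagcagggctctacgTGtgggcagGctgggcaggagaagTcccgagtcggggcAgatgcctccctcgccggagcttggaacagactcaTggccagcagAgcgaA
Rprl2: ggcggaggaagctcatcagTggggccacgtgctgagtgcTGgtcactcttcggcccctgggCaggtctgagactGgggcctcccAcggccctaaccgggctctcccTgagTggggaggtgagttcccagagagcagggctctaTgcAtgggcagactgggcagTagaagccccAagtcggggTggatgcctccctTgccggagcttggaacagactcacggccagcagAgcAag
Rprl1: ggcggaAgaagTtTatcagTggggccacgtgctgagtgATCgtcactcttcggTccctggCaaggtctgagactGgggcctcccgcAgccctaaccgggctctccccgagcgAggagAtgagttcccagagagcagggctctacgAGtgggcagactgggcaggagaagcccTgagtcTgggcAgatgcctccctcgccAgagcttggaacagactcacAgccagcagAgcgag
Over these 234 bases Rprl3 differed from Rpph1 at 15 positions (93.6% identical), Rprl2 at 16 (93.2%) and Rprl1 at 21 (91.0%). Rprl3 and Rprl2 differed from each other at 23 positions. The longest stretch that Rprl3 shares exactly with Rpph1 has 37 bases. No window of 50 bases of Rprl3 occurs in Rpph1, and 7 of its 241 such windows occur in Rprl2. At 25 bases, 31 of 266 windows of Rprl3 occur in Rpph1. No source used here says how the authors' alignment handled reads that fit several of these genes.

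Per library, 465324 to 1364523 reads were counted on genes, recovered from the deposited normalised values, in which 1 read was worth 0.452 to 3.23 units. Zcchc8 itself had values of 59.3 and 77.5 in the control libraries at 0 h and 25.3 and 5.29 in the KO libraries, a log2 difference of -2.42 (SE 0.681, limma adjusted p = 0.0332, and adjusted p = 0.509 without the library with 5.29). At 8 h the Zcchc8 values of the genotypes overlapped, at 7.57 and 11.3 in control and 9.56 and 3.78 in KO. The replicates of KO at 8 h stood further apart than those of any other group, with a chi-square per degree of freedom of 11.8 against 3.43 to 4.13. Of 20 embryonic stem cell markers, 15 were tested and 1 was called between the genotypes by limma, Dppa3 at 8 h, while edgeR called 1 at 4 h and 2 at 8 h and DESeq2 called 0. Esrrb had 0 reads in all 12 libraries and Nanog reached a value of 7.05 at most. Of 20 fibroblast markers, 13 were tested and 5 were called higher in KO at 0 h by limma, where 4.23% of all genes were, Acta2, Cdh11, Thy1, Twist1 and Vim. The summed value of the fibroblast markers at 0 h was 6353 to 10556 in control and 15206 to 19906 in KO. Postn and Pdgfrb, both fibroblast markers, had 0 reads in every library. Bulk libraries cannot tell fewer cells of a type from less RNA per cell.

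Rn45s, the ribosomal precursor, gave the most reads of these RNAs before the drug, and almost all of its signal was gone by 4 h in both genotypes. In control its normalised read counts were 131959 and 219412 at 0 h, 1967 and 2369 at 4 h, and 694 and 2104 at 8 h. In KO they were 234828 and 193438 at 0 h, 5347 and 7151 at 4 h, and 2622 and 3409 at 8 h. The genotypes overlapped at 0 h, while both KO libraries lay above both control libraries at the later times. The share of all genes with such a separation of 2 libraries from 2 was not counted, here or for the RNAs below. By limma calls, a different measure, 0.748% and 4.88% of all genes were higher in KO at those times. The median gene was also higher in KO, by 0.29 and 0.63 log2 units.

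The mean count at 4 h was 1.23% of that at 0 h in control and 2.92% in KO, and at 8 h it was 0.796% and 1.41%. On the log2(value + 1) scale the change from 0 to 4 h was -6.30 (SE 0.390, n = 2 libraries a group) in control and -5.11 (SE 0.390) in KO. From 4 to 8 h it was -0.84 in control and -1.05 in KO with the same error. The median gene moved by -0.79 and -0.45 in that interval, and relative to it Rn45s moved by -0.04 and -0.59. In control, 1 of the 6952 genes fell further than Rn45s from 0 to 4 h, Mir292b, and in KO 14 genes did. Over all genes 11.8% were called lower at 4 h in control and 14.4% in KO, with medians of -0.49 and -0.68. These calls depend on the scale: of the genes called in control, 34 were higher and 817 lower on the authors' scale, against 355 and 452 after TMM scaling, and in KO 2 and 998 against 234 and 303. After TMM scaling the medians were 0.07 and 0.02, so that scale cannot show a fall shared by most genes.

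As a share of all counted reads, which does not use the authors' library factors, Rn45s fell from 16.0% and 14.6% to 0.314% and 0.298% at 4 h in control. In KO it fell from 15.8% and 13.5% to 0.699% and 0.793%. The Wilson 95% interval of the first control library at 4 h was 0.303% to 0.327%, and such intervals cover counting error only. At 8 h the shares were 0.193% and 0.473% in control and 0.431% and 0.450% in KO, so on this scale the genotypes overlapped at 8 h although they did not at 4 h.

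**Figure D1:**
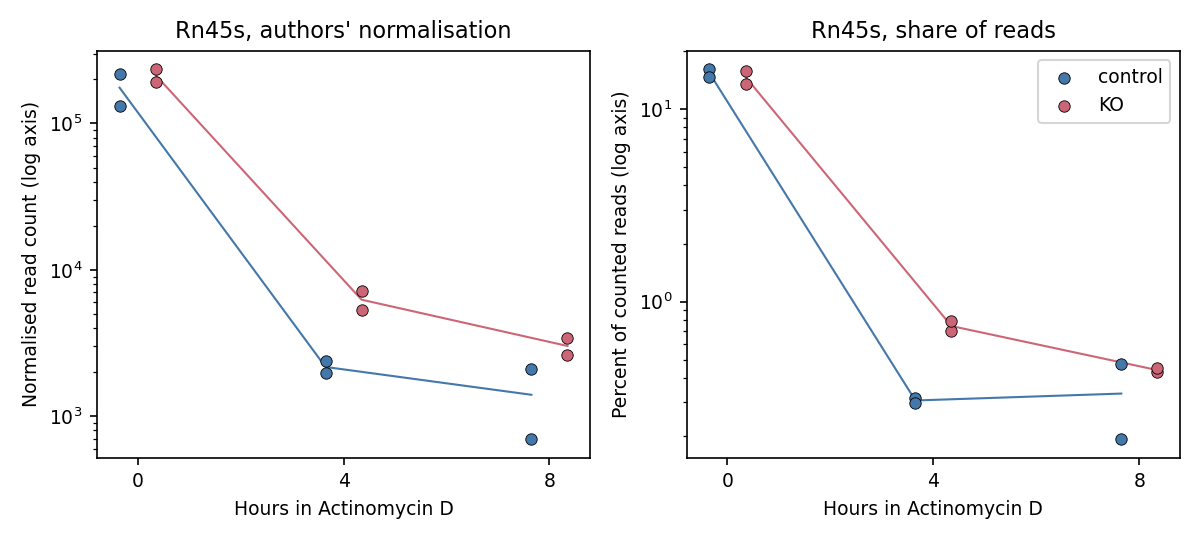
Rn45s in each library against hours in Actinomycin D, as the authors' normalised read count (left) and as percent of counted reads (right), both on log axes; points are libraries, lines join group means. Both panels show the drop by 4 h with KO above control there, while at 8 h the groups overlap only in the right panel.

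The KO minus control log2 difference of Rn45s was 0.32 at 0 h, 1.52 at 4 h and 1.31 at 8 h (SE 0.390 each). The median gene was also higher in KO on the authors' scale, by 0.44, 0.29 and 0.63, and relative to that median Rn45s stood at -0.11, 1.23 and 0.68. The value at 8 h rests on single libraries: it was 0.51 without control replicate 1 and 2.11 without control replicate 2.

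The selection of Rn45s used its loss, but not the difference in loss between the genotypes, so that difference was tested. The change from 0 to 4 h was 1.19 higher in KO on the log2 scale (SE 0.552, 95% interval 0.08 to 2.31). Its unadjusted limma p of 0.0361 did not pass adjustment over all genes (adjusted p = 0.9998). The log2 SD of Rn45s itself within groups was 0.545, above the limma SE of 0.390 for a difference between 2 groups. Without the spread of other genes the interval would therefore be wider. In the alternatives that kept all libraries, the unadjusted p ran from 0.000758 (DESeq2) to 0.0365 (limma without a filter), and none passed adjustment. Of all genes 0.0144% were called in the main limma test, 1 gene, the histone gene Hist1h4i (3.25, SE 0.564, limma adjusted p = 0.00542). The call of Hist1h4i was lost without control 4 h replicate 1, KO 0 h replicate 1, KO 0 h replicate 2 or KO 4 h replicate 2, with adjusted p from 0.0839 to 0.297. From 4 to 8 h the difference in change for Rn45s was -0.21 (SE 0.552, 95% interval -1.32 to 0.90, adjusted p = 0.998). In that test limma called 0 genes (0%), with 388 at an unadjusted p under 0.05, and edgeR and DESeq2 each called 1. Without control 8 h replicate 2 the value for Rn45s in the late interval was 0.59.

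Set against Rmrp in the same library, a ratio that no library factor can move, Rn45s went from 21.1 and 19.1 reads per Rmrp read at 0 h to 0.303 and 0.273 at 4 h in control. In KO the ratio went from 42.8 and 25.9 to 0.864 and 0.739. The ratios of the genotypes did not overlap at 0, 4 or 8 h, where they were 0.145 and 0.264 in control and 0.362 and 1.09 in KO. Against Rpph1 the ratio at 4 h was 0.541 and 0.520 in control and 1.96 and 1.93 in KO. Rmrp and Rpph1 themselves differed between the genotypes by -0.40 and -0.57 at 0 h on the log2 scale, and these differences enter the ratios. The Rn45s row may include mature ribosomal RNA that the depletion left behind, and its part in the values was not tested.

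The genes whose profiles lay closest to Rn45s were mostly replication-dependent histone genes. The search took the 2546 genes whose mean reached 100 in either 0 h group. The 5 nearest by the root mean square distance of centred log2 profiles over 12 libraries were Hist4h4 (0.760), Hist1h2bj (0.763), Hist1h3f (0.780), Nlrp12 (0.782) and Hist1h2ak (0.785). Hist1h3f, a histone H3 gene, had values of 761 and 1127 at 0 h and 49.5 and 48.7 at 4 h in control, and 1005 and 1107 then 39.2 and 85.2 in KO. All 12 libraries of such a profile share their library factors with Rn45s.

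Rmrp, the RNA of RNase MRP, showed no loss of the kind seen for Rn45s. Its values were 6241 and 11486 at 0 h, 6484 and 8675 at 4 h and 4796 and 7968 at 8 h in control. In KO they were 5482 and 7479, then 6189 and 9674, then 7247 and 3125. On the authors' scale the libraries of the genotypes overlapped at each time. Its log2 change from 0 to 4 h was -0.18 in control and 0.27 in KO (SE 0.392), which placed it above 67.1% and 94.0% of all genes.

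Rpph1, the RNA of RNase P, was at 3965 and 5372 in control at 0 h, 3637 and 4556 at 4 h, and 1901 and 2908 at 8 h. In KO it was at 2771 and 3493, then 2730 and 3695, then 2501 and 1218. Both KO libraries lay below both control libraries at 0 h, with a log2 difference of -0.57 (SE 0.373), and on the authors' scale the groups overlapped later. Rpph1 was not called at 0 h, where limma called 0.0719% of all genes lower in KO, and 4.80% of genes had a lower log2 difference. Its change from 0 to 4 h was -0.18 in control and 0.03 in KO, and from 4 to 8 h -0.79 and -0.86. The median gene moved by -0.79 in control and -0.45 in KO in that later interval.

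Terc, the telomerase RNA, was at 113 and 216, then 153 and 156, then 124 and 179 in control. In KO it was at 130 and 256, then 195 and 294, then 226 and 113. The KO libraries lay above the control libraries at 4 h, where the log2 difference was 0.63 (SE 0.422), and overlapped them at 0 and 8 h. The log2 change of Terc from 0 to 4 h was -0.02 in control and 0.39 in KO.

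The direction of these small changes depends on the scale. In RPM, reads scaled to an equal total per library, the mean of Rmrp in control was 7615, then 10647, then 15614 over the 3 times, and that of Terc 141, 220 and 373. The log2 change from 0 to 4 h in control was 0.48 for both Rmrp and Rpph1 and 0.63 for Terc in RPM, against -0.18, -0.18 and -0.02 on the authors' scale. Without Rn45s in the total, the RPM changes were 0.25 for Rmrp, 0.24 for Rpph1 and 0.40 for Terc. An equal total per library cannot show a fall shared by most RNAs, so a rise in RPM need not be a rise in amount. On the authors' scale KO 8 h replicate 2 held the lowest KO values of Rpph1, Rmrp and Terc.

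The comparison of the genotypes depends on the scale as well. In RPM both KO libraries of Rpph1 lay below both control libraries at each time, for example at 3569 and 4099 against 5815 and 5739 at 4 h. The KO minus control log2 difference of Rpph1 was -0.96, -0.59 and -1.19 at 0, 4 and 8 h in RPM and -1.001, -0.66 and -1.10 after TMM scaling, against -0.57, -0.36 and -0.43 on the authors' scale. For Rmrp the RPM values were 7589 and 7642 in control and 3688 and 5213 in KO at 0 h, and 13314 and 17914 against 11913 and 4123 at 8 h, with no overlap. They overlapped at 4 h. The log2 difference of Rmrp in RPM was -0.80, -0.19 and -1.14, against -0.40, 0.05 and -0.38 on the authors' scale. Terc overlapped at 0 and 8 h in RPM too.

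**Figure D2:**
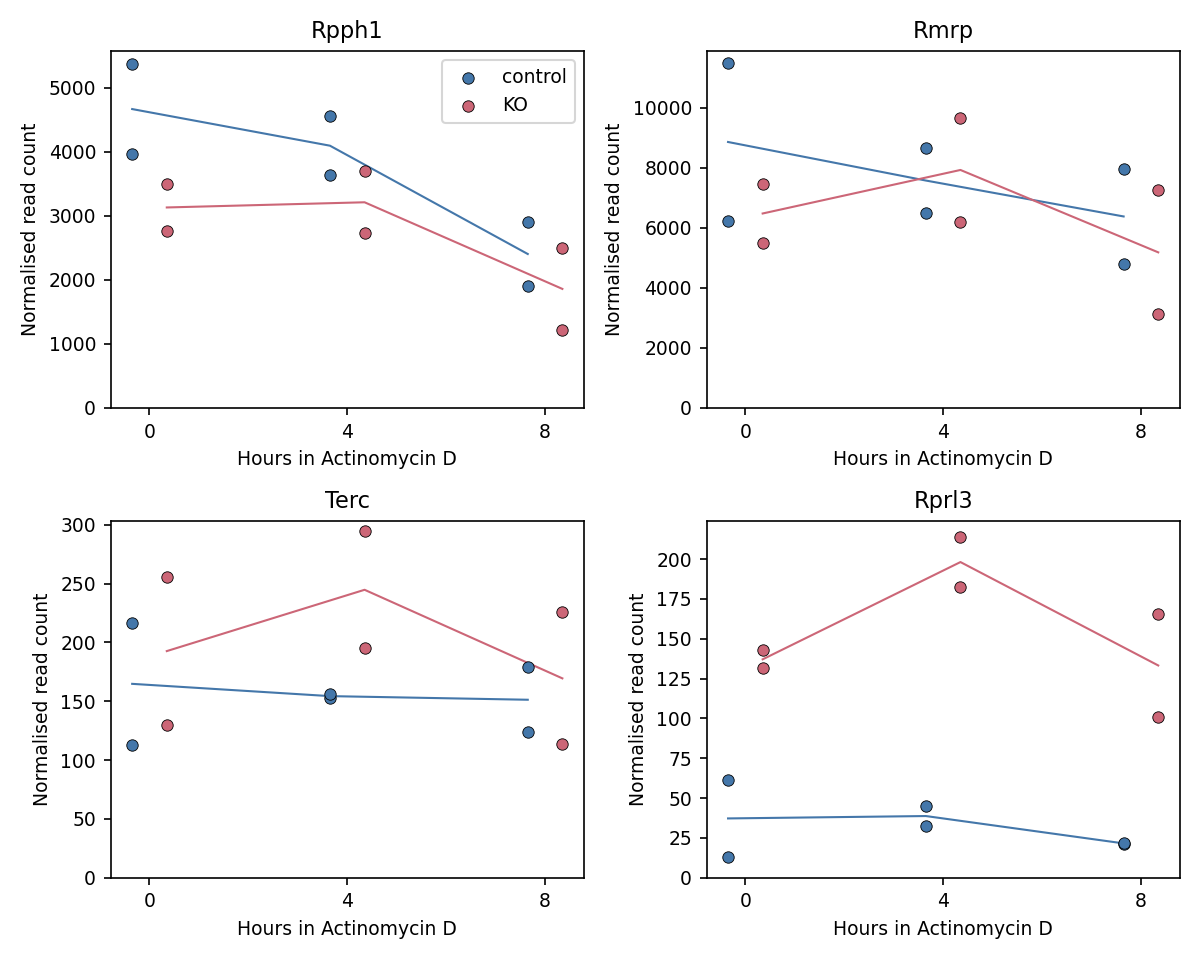
Authors' normalised read counts of Rpph1, Rmrp, Terc and Rprl3 against hours in Actinomycin D, control in blue and KO in red; points are libraries and lines join the means of 2. On this scale the genotypes overlap for Rmrp at every time, and each KO library of Rprl3 lies above every control library.

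The difference between the genotypes in the change from 0 to 4 h was 0.21 for Rpph1 (95% interval -0.85 to 1.27), 0.45 for Rmrp (-0.67 to 1.57) and 0.41 for Terc (-0.79 to 1.62). From 4 to 8 h it was -0.07 (-1.14 to 0.99), -0.42 (-1.54 to 0.70) and -0.53 (-1.73 to 0.67). By limma the adjusted p was 0.9998 for each in the early interval, and 0.998, 0.988 and 0.988 in the late one. None was called, and the intervals leave room for differences of more than 1 log2 unit.

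Within a library, Rmrp gave more reads than Rpph1, and the mean ratio was highest at 8 h in both genotypes. Rmrp gave 1.57 to 2.74 reads per Rpph1 read over the 6 control libraries and 1.98 to 2.90 over the 6 KO libraries. In control the ratio was 1.57 and 2.14 at 0 h, 1.78 and 1.90 at 4 h, and 2.52 and 2.74 at 8 h. In KO it was 1.98 and 2.14, then 2.27 and 2.62, then 2.90 and 2.57. The control libraries at 8 h lay above all earlier control libraries, while in KO those of 4 and 8 h overlapped. Terc gave 1.77% to 2.52% of the summed reads of Terc and Rmrp in control and 2.31% to 3.50% in KO. These ranges overlapped only across times. At each single time both KO libraries lay above both control libraries, at 0 h with 2.31% and 3.31% against 1.78% and 1.85%. Differences of Rmrp between the genotypes enter this share.

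Rprl3, a copy of the RNase P RNA gene, was higher in every KO library than in every control library. Its values in control were 13.2 and 61.4 at 0 h, 32.7 and 44.8 at 4 h, and 21.1 and 22.1 at 8 h. In KO they were 131 and 143, then 182 and 214, then 166 and 101. These rest on 10 to 58 reads a library in control and 78 to 325 in KO.

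The KO minus control log2 difference of Rprl3 was 2.21 at 0 h, 2.34 at 4 h and 2.53 at 8 h (SE 0.485 each), and 1.78, 2.05 and 1.90 relative to the median gene. As it was selected for this difference, no test is given. Of all genes, 4.23%, 0.748% and 4.88% were called higher in KO at these times, and 0.0719%, 0% and 0.0144% lower. At 4 h the count of genes called lower was 0 by limma, with 677 genes at an unadjusted p under 0.05 in either direction, 2 called lower by edgeR and 49 by DESeq2. After TMM scaling the calls were 84 higher and 26 lower at 0 h, 45 and 17 at 4 h, and 100 and 19 at 8 h, against 294 and 5, 52 and 0, and 339 and 1 on the authors' scale. The value at 0 h was 1.15 without control replicate 1, the library with 10 reads, and 3.28 without control replicate 2.

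Set against Rpph1 in the same library, Rprl3 made up 0.331% and 1.13% of the summed reads of Rprl3 and Rpph1 in control at 0 h, and 4.53% and 3.93% in KO. Over all times the share ran from 0.331% to 1.13% in the 6 control libraries and from 3.93% to 7.64% in the 6 KO libraries, with no overlap. This share does not use the library factors, and the mean of Rpph1 was lower in KO than in control at each time. The part of reads from Rpph1 assigned to Rprl3 was not tested.

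**Figure D3:**
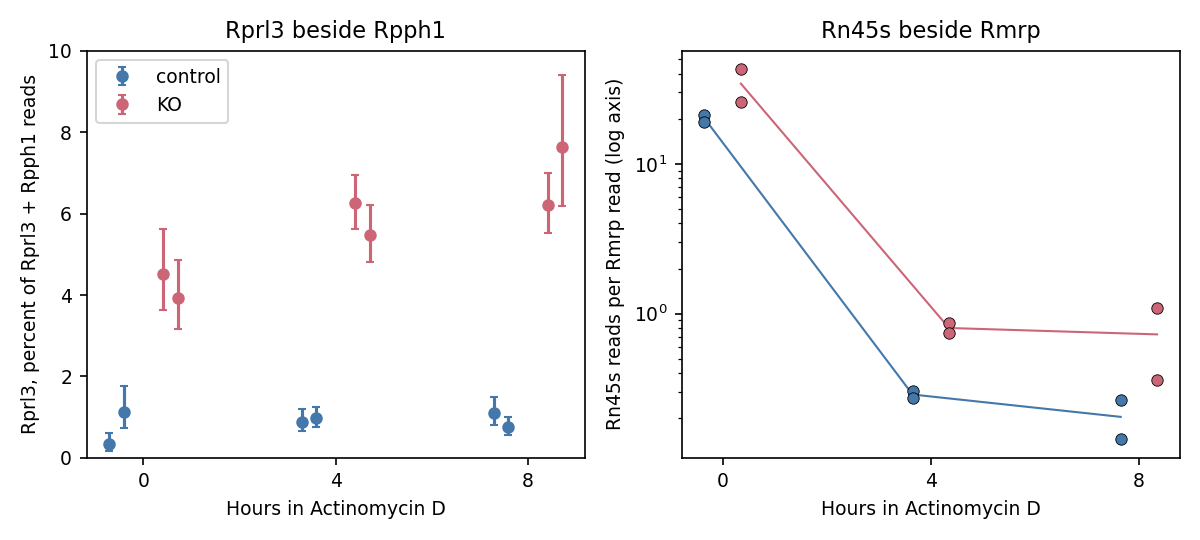
Left, Rprl3 as percent of the summed reads of Rprl3 and Rpph1 in each library, with Wilson 95% intervals; right, Rn45s reads per Rmrp read on a log axis, points being libraries and lines joining group means. KO libraries of Rprl3 start at 3.93% and control libraries end at 1.13%.

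Over time Rprl3 remained measurable in the drug. Its log2 change was 0.40 in control and 0.52 in KO from 0 to 4 h, and -0.80 and -0.61 from 4 to 8 h (SE 0.485). The early value in control turned on a single library, at -0.67 without control 0 h replicate 1 and 1.47 without control 0 h replicate 2. After TMM scaling the early changes were 0.97 and 1.23. Over the 13 fibroblast markers tested, the median KO minus control difference was 1.26, 0.93 and 0.65 at 0, 4 and 8 h. For all genes it was 0.44, 0.29 and 0.63. After TMM scaling the median of the markers was 0.83, 0.63 and -0.02. Of these markers 5, 0 and 0 were called by limma, 4, 0 and 0 by edgeR, 5, 5 and 0 by DESeq2 and 4, 2 and 0 after TMM scaling. An unadjusted limma p under 0.05 was found for 12, 10 and 4, and for 1221, 677 and 1582 of all 6952 genes. Their summed value at 8 h was 8171 to 10230 in control and 11847 to 14707 in KO. Their part in the Rprl3 result was not tested.

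The other copies had almost no reads. Rprl1 had 0 reads in all 12 libraries, which allows up to 2.20 to 6.45 RPM, depending on the library (3 reads of its total). Rprl2 had 2 reads, both in KO 8 h replicate 1. Of the 3 copies, reads were assigned to Rprl3 in every library and to the others in 1 library at most. The genes with profiles nearest to that of Rprl3, among 6951, were Uchl1 (distance 0.542), a ubiquitin hydrolase, Bloc1s2 (0.554), a subunit of a lysosome biogenesis complex, and Nefh (0.563), a neurofilament subunit. Nefh was at 25.02 and 29.1 in control and 108 and 136 in KO at 0 h.

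Per kilobase of the RefSeq transcript, the order of the short RNAs in control at 0 h was Rmrp (32232 ± 13487, SD, n = 2), Rpph1 (14365 ± 3060), Terc (415 ± 184) and Rprl3 (159 ± 145). No neighbours in this order overlapped between libraries, although Terc and Rprl3 lay within 2 SD of each other. In KO at 0 h Rprl3 was at 583 ± 34.5 per kilobase and Terc at 485 ± 224, which did not differ beyond their spread.

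Rpph1 shares its start region with a protein gene. The stretch between the GENCODE start of Rpph1 and the RefSeq start of Parp2, which codes for a DNA repair enzyme and is read in the opposite direction, lies at chr14:50807768-50807915 (GRCm38.p6, given on the strand of Parp2). Its 148 bases are shown because they hold the start regions of both genes, with the match to TATAA in capitals, searched on both strands.
Rpph1 to Parp2: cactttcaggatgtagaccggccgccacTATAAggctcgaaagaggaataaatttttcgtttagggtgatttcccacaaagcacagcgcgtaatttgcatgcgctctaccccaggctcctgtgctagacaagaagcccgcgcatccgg
The motif occurs 1 time, beginning 29 bases from the Rpph1 end. TATAA occurs in 14.0% of all RefSeq promoters in the same stretch before the start, so a match says little by itself. From these facing starts, Rpph1 had 967 to 6438 reads a library and Parp2 12 to 67. Parp2 was at 15.8 and 45.2 in control and 48.8 and 56.4 in KO at 0 h, the opposite order to Rpph1. These rest on 12, 14, 29 and 32 reads, and the median gene was also 0.44 higher in KO at 0 h. At 4 h the Parp2 values overlapped, at 13.1 and 37.8 in control and 37.6 and 32.9 in KO.

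**Figure D4:**
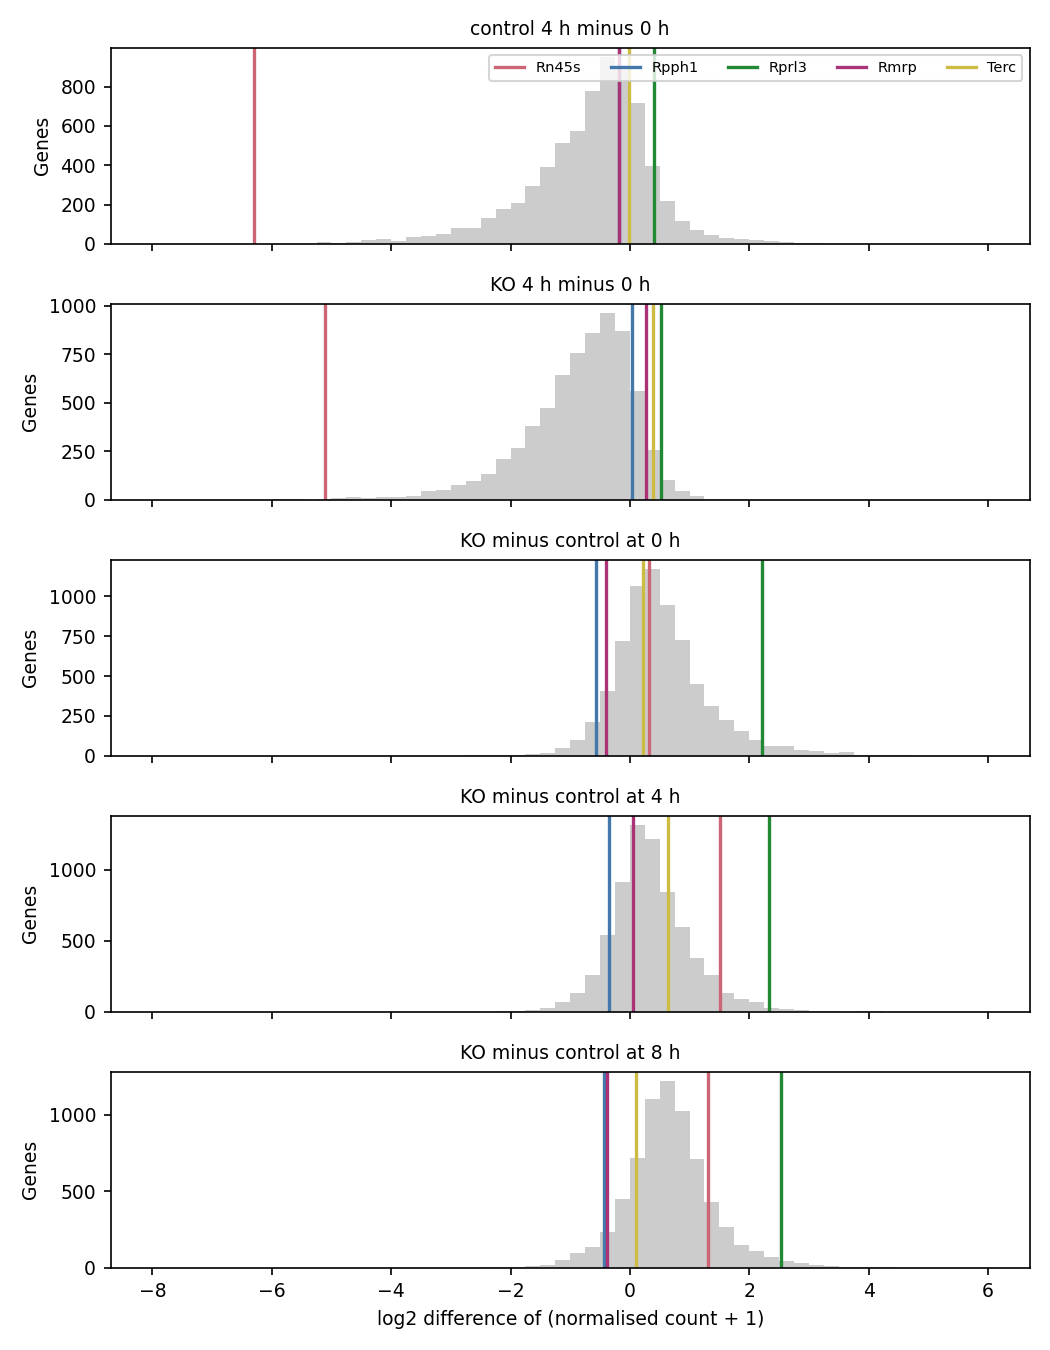
Log2 differences of all 6952 tested genes (grey bars, bins of 0.25) for the change from 0 to 4 h in each genotype and for KO minus control at each time, with coloured lines at the 5 RNAs. Rn45s lies at -6.30 and -5.11 in the upper panels and Rprl3 at 2.21 to 2.53 in the lower ones.

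The counts below for proteins that work with these RNAs stand beside the 4.23%, 0.748% and 4.88% of all genes that limma called higher in KO at 0, 4 and 8 h. Of 11 proteins of RNase P and RNase MRP, 6 were tested and 0 were called at 0, 4 or 8 h, with medians of 0.83, 0.60 and 0.26 against 0.44, 0.29 and 0.63 for all genes. The number with an unadjusted limma p under 0.05 was 2, 1 and 1. Among all 6952 genes it was 1221, 677 and 1582 at these times, which is the background for the lists below too. Rpp25, a shared subunit that binds both RNAs, had a difference of 0.87 at 0 h (SE 0.429, adjusted p = 0.276). Pop5, another shared subunit, stood at 0.38 (SE 0.650, adjusted p = 0.824).

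Of 8 telomerase proteins, 7 were tested and 0 were called, with a median of 0.46 at 0 h, where 1 had an unadjusted p under 0.05. Dkc1, the pseudouridine synthase dyskerin, had a difference of 0.32 and Nhp2, its partner, of 0.10. Of 7 proteins of the 7SK particle and P-TEFb, 6 were tested and 0 were called between the genotypes by limma, with 0, 2 and 1 at an unadjusted p under 0.05 at 0, 4 and 8 h, while edgeR called 1 at 8 h. From 0 to 4 h 4 of them fell in control and 2 in KO, where 11.8% and 14.4% of all genes did, and 2 and 0 were called after TMM scaling. Cdk9, the kinase of P-TEFb, fell by 1.82 in control (SE 0.485, limma adjusted p = 0.00900, 0.241 without control 0 h replicate 2 and 0.203 without control 4 h replicate 1), while Larp7, which binds the end of the 7SK RNA, had a change of -0.48.

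Of 28 genes of the RNA polymerase III machinery, 21 were tested and 0 were called between the genotypes, with 1, 2 and 3 at an unadjusted p under 0.05. Gtf3c1, a transcription factor subunit, had a difference of 0.39 at 0 h (SE 0.380, limma adjusted p = 0.665). Of 13 genes that bind or trim the ends of small RNAs, 8 were tested and 0 were called, with 1, 0 and 3 at an unadjusted p under 0.05 and medians of 0.16 at 0 h and 0.87 at 8 h. Rexo1, an exonuclease, had a difference of 1.22 at 8 h (SE 0.414, adjusted p = 0.0747). For these lists edgeR, DESeq2 and TMM scaling also called 0 between the genotypes, apart from the 1 by edgeR named above.

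Of 18 symbols of the RNA polymerase I machinery 15 had a row and 11 were tested, and limma called 1 between the genotypes, at 0 h, where 4.23% of all genes were called higher. edgeR called 1 at 0 h and 1 at 8 h, DESeq2 0, and the fit with a replicate block 3 at 0 h and 3 at 8 h. At 0, 4 and 8 h 5, 2 and 4 of the 11 had an unadjusted limma p under 0.05. Ubtf, which binds ribosomal gene promoters, was at 31.6 and 58.1 in control and 116 and 166 in KO at 0 h, a log2 difference of 1.67 (SE 0.454, adjusted p = 0.0266). It was not called after TMM scaling (1.24, adjusted p = 0.0784). Without control 0 h replicate 1, KO replicate 1 or KO replicate 2 the adjusted p ran from 0.104 to 0.284.

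Of 47 symbols of ribosomal precursor processing factors, 45 had a row, 39 were tested and 2 were called by limma, both higher in KO at 8 h, a share near the 4.88% of all genes. edgeR also called 2 at 8 h, DESeq2 0 and the fit with a replicate block 4. At 0, 4 and 8 h 2, 0 and 13 of the 39 had an unadjusted limma p under 0.05. Nob1, the nuclease that makes the final cut of the small subunit RNA, was at 2.16 and 8.58 in control and 38.2 and 21.4 in KO, a difference of 2.43 (SE 0.537, adjusted p = 0.00387, and 0.274 without control 8 h replicate 1). Nop14, a small subunit assembly factor, differed by 1.55 (SE 0.443, adjusted p = 0.0300). Neither was called after TMM scaling, at adjusted p = 0.0886 and 0.201, and the median of the list at 8 h was 0.66 against 0.63 for all genes. Nop14 also lost its call without control 8 h replicate 1 (adjusted p = 0.348), without control 8 h replicate 2 (0.0704) or without KO 8 h replicate 2 (0.496).

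Of 27 other small structured noncoding RNAs, 6 had a row and none reached the level needed for a test. Rnu12 and Rnu11, RNAs of the minor spliceosome, had 30 and 28 reads over the 12 libraries together.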

How the data were processed

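The deposited table holds normalised read counts (a signal on the authors' scale) of 12 of the series' 59 samples. The submitters' processing notes name the build mm9 and the tools DESeq2, HTSeq 0.6.0 and TopHat2 2.1.1, with no settings. No source used here gives the library factors or the strand setting, and no row names a spike-in. Of 33896 rows, 978 repeated another and were dropped, and the remaining transcripts were summed by symbol. In each library 100% of values were whole multiples of 1 read within 0.001, so reads were recovered.

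Genes whose mean value reached 10 were tested with limma 3.58.1 (trend, robust, two-sided, Benjamini-Hochberg, calls at adjusted p below 0.05) on log2(value + 1), with 6 group means in 1 fit. A fold change on this scale understates that of low genes. edgeR 4.0.16 quasi-likelihood tests and DESeq2 1.42.0 on recovered reads, TMM scaling, size factors, RPM, a pseudocount of 5, no filter, a replicate block and leaving out each library were alternatives. By edgeR on recovered reads 157 genes were higher and 2 lower in KO at 0 h. The fit was also run on simulated reads whose means were equal in all groups, apart from chosen genes changed in KO at 4 h. That run cannot judge the fit on data with a fall shared by most genes.

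The members and lists were chosen with earlier results of these data known. From each list the genes called between genotypes (at most 3) or else the 2 with the highest mean are named. A gene that this rule selects is not reported here. Hist1h4i, Mir292b, Parp2 and the genes given for other small RNAs were named after their values were seen. Transcript sequences come from GENCODE M21, the promoter stretch and lengths from RefSeq (GRCm38.p6), whose build differs from the authors'; 6 of the 8 symbols were matched to GENCODE transcripts. Libraries were not paired by replicate number in the main fit. The other 47 samples were not analysed here.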

Additional observations from a re-analysis of the deposited data

How the results depend on the processing

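Rn45s kept its fall in all alternatives run. From 0 to 4 h in control it was -5.73 with TMM, -5.75 with DESeq2 size factors and -5.64 in RPM, and in KO -4.40, -4.42, -4.29 and, without Rn45s in the total, -4.51. Rprl3 stayed higher in KO in every alternative run: 1.15 to 3.28 at 0 h with a library left out, and 1.80 at 8 h in RPM, with or without Rn45s in the total. The early genotype difference of Rn45s lay between 0.83 and 1.56 and was not called in any of 19 alternatives (adjusted p from 0.246 to 0.99996), and the late one ran from -1.01 to 0.59 with a library left out. With a library left out, the early difference ran from -0.00776 to 0.43 for Rpph1 and from -0.0723 to 0.90 for Terc, and the late one from -0.59 to 0.45 for Rpph1 and from -1.03 to 0.18 for Rmrp. The count of genes called in the early test was 1, 0 without a filter, and 0 to 30 with a library left out (30 without control 0 h replicate 1, 9 without control 0 h replicate 2). The late count was 0, 1 by edgeR, 1 by DESeq2 and 0 to 2 with a library left out. With 1 library left in a group, that library is assumed to vary like the other groups.

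Gene by gene, the differences between replicates 1 and 2 were nearly uncorrelated between groups (15 pairs of groups, r from -0.07 to 0.12, 2 above 0.1). Such a correlation cannot see a shift shared by all genes. The summed value of a library was lower in replicate 1 than in replicate 2 in every group except KO at 0 h. Whether same-numbered libraries belong together was therefore not settled. With the replicate block the early difference of Rn45s was 1.19 (unadjusted p = 0.00907, adjusted p = 0.9996), and the early and late counts were 1 and 0, while the block raised the genes higher in KO to 477, 107 and 754 at 0, 4 and 8 h from 294, 52 and 339. edgeR gave 157, 72 and 582, and DESeq2 101, 96 and 152. Low counts limit Rprl3, with 10 reads in control 0 h replicate 1, and Rprl1 and Rprl2.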
